A study of Mus musculus with 2 samples.

Results

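Ephrins, Slits and netrins are cues that tell cells where to go and which neighbours to leave alone, and the genes for these cues and their receptors are described here in 2 lines of mouse mesenchymal stem cells, with and without Dicer. Genes were taken from the deposited table by symbol: the Eph receptors, the ephrins, the Slits and their Robo receptors, the netrins, and the netrin receptors of the Unc5 family with Dcc. The table held 38 such genes among 23227 symbols, 15 for ligands and 23 for receptors. The wild type (WT) line, Dicer f/f, carries floxed, intact alleles of Dicer, the enzyme that makes mature microRNAs, and the knockout (KO) line, Dicer -/-, lacks it. Both are immortalized monoclonal lines of adult cells, labelled both as mesenchymal stem cells and as fibroblasts, grown in Alpha-MEM with 10% serum and lysed before confluence. The labels give 1 sample per genotype, so each line stands for 1 clone, and an effect of Dicer cannot be told apart from a difference between clones. PolyA-selected RNA was sequenced.

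Eph receptors are receptor tyrosine kinases whose ligands, the ephrins, sit on the surface of neighbouring cells. A-class ephrins are held by a lipid anchor and B-class ephrins cross the membrane, so that signals run into the receptor cell and back into the ephrin cell, most often ending in repulsion or in a boundary between cell groups. Slits are secreted proteins that repel cells carrying Robo receptors. Netrins are secreted relatives of laminin that attract cells through Dcc and neogenin and repel them through Unc5 receptors. In mesenchymal cells and bone these families are known for regulating cell sorting, osteoblast and osteoclast differentiation and blood vessel growth.

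Values are the authors' mean normalised read counts, followed by those of the 2 libraries per genotype that could be read back from each mean. They are called the deeper and the shallower library after their totals, which lay between 14135422 and 15718369 reads in genes, and the deeper one is given first throughout. Nothing in the labels says that the libraries of a genotype came from separate cultures, so their spread, and every p-value, may be technical. WT was read as condition A and KO as condition B from the order of the names in the comparison's title, and all directions rest on that. Genes with an average of at least 20 normalised reads across WT and KO were compared, and such a gene was called higher or lower if the ratio of KO over WT was at least 2 or at most 0.5, and the 95% exact (Clopper-Pearson) interval of the ratio, which covers counting error only, excluded 1. Dicer1 itself was at 873 (804 and 943) in WT and 565 (573 and 557) in KO, a ratio of 0.647 that was not called, and reads per gene do not show whether the deleted part was missing. Of 15 markers of mesenchymal stem cells, 14 reached the minimum, of which Vcam1 was called higher and Col1a1 and Col1a2 lower, while Thy1 had 0 reads in all 4 libraries. Summed endothelial markers lay between 21.3 and 29.9 normalised reads in the 4 libraries, with no marker reaching the minimum mean and Cldn5 at 0. Summed glial markers lay between 71.8 and 102, with Mbp called higher in KO (16.4 and 15.7 against 42.3 and 44.8, limma adjusted p of 0.0276), epithelial markers between 17.4 and 71.8 and haematopoietic markers between 30.9 and 53.8.

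Many guidance genes were nearly silent in these cells. Of the 38 genes, 19 reached the minimum mean and were compared, 14 had between 1 and 74 reads over all 4 libraries, and 5 had no read (Dcc, Epha10, Epha5, Epha6 and Unc5d). Among the 19, Ntn1 and Epha4 were called higher in KO, Ephb2, Efnb1, Efnb2, Slit3 and Unc5b were called lower, and 12 were neither. In bulk RNA, fewer cells with a message and less message per cell cannot be told apart. Over all 11710 genes tested, 8.92% were called higher and 8.56% lower, against 10.5% and 26.3% of the guidance genes. The authors' deposited table, read at an adjusted p below 0.1, also called Ntn1 and Epha4 higher, and called Ephb2, Efnb1, Unc5b and Epha3 lower, where 3.91% of the 17303 genes with a p-value were called higher and 3.96% lower. limma on the 4 libraries called Ntn1 and Epha4 higher and Ephb2, Efnb1 and Unc5b lower at an adjusted p below 0.05, against 3.55% and 3.65% of all tested genes. Thus 5 genes were called by all 3 rules in the same direction, and 2, Efnb2 and Slit3, by the size rule alone. All 3 rules read the same 4 libraries, so their agreement is not independent evidence. Epha4 (8.90 in WT), Slit3 (13.7 in KO) and Ephb2 (0 in KO) passed the minimum through 1 genotype only, as did Efna3 and Epha1, which were not called. Such a gene is bound to be higher in the genotype it passed through. The counts, also those of ligands and receptors below, therefore describe these 19 genes and not the families as a whole.

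**Figure D1:**
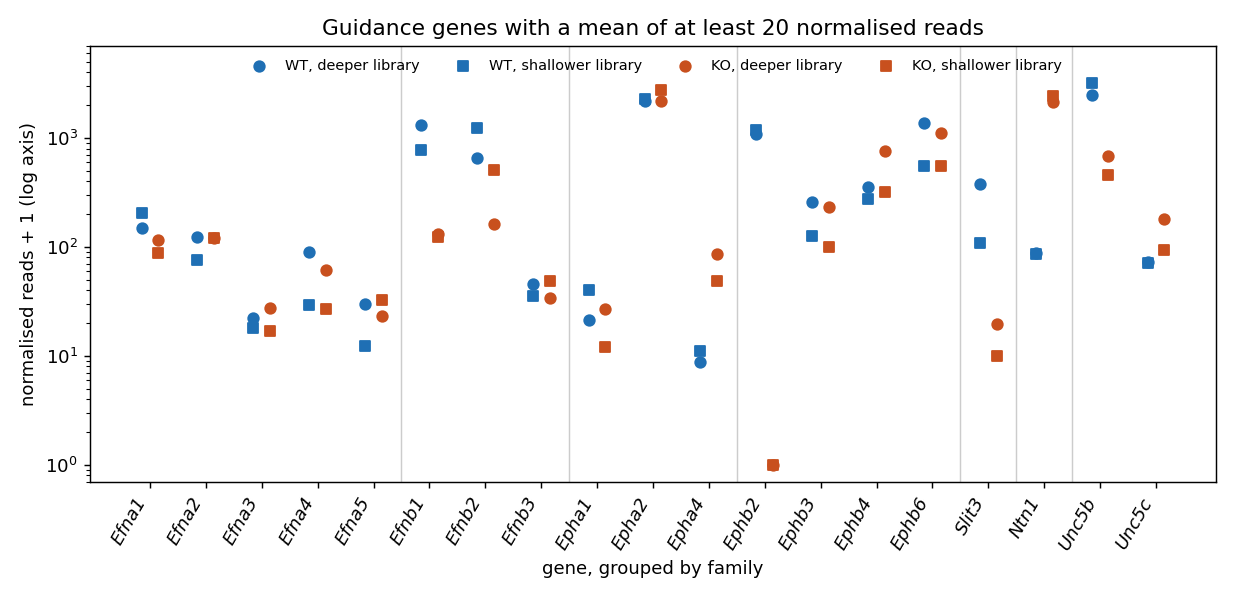
Normalised reads plus 1 on a log axis for the 19 compared guidance genes, 1 point per library, blue for WT and orange for KO, circles for the deeper and squares for the shallower library, with grey lines between families. Ephb2 drops from 1097 and 1189 to 0 reads, Ntn1 rises from 86.8 and 85.2 to 2119 and 2438, and Epha2 lies between 2161 and 2745 in all 4 libraries.

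The 3 genes that fell in KO by all rules were the receptor genes Ephb2 and Unc5b and the ligand gene Efnb1. Their promoters, from 250 bases before to 50 after the annotated start, are shown because a receptor and a ligand of the B class fell together. They come from RefSeq on GRCm38.p6, which held promoters for 17 of the 19 compared genes, and capitals mark the GC box GGGCGG, searched on both strands. Ephb2 is on chr4:136835963-136836262, minus strand, Efnb1 on chrX:99135811-99136110, plus strand, and Unc5b on chr10:60831532-60831831, minus strand.
Ephb2: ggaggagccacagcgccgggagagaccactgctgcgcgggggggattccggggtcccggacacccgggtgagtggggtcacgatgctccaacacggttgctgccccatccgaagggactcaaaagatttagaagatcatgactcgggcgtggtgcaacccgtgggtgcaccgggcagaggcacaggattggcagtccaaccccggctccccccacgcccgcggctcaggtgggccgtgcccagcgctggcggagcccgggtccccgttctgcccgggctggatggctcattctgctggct
Efnb1: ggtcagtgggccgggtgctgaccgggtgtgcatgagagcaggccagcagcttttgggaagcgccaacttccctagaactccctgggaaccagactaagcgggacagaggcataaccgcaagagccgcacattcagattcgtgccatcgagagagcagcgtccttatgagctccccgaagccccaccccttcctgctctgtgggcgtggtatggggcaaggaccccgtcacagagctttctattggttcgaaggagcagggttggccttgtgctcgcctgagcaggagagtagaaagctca
Unc5b: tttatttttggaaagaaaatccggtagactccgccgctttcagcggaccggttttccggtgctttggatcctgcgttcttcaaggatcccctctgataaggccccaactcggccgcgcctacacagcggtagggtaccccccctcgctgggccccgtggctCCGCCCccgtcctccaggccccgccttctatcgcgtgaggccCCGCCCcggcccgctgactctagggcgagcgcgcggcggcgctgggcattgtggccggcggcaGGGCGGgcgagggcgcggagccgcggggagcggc
The Unc5b window held 3 GC boxes and those of Ephb2 and Efnb1 held 0, where 35.7% of 32851 promoters of the same length held at least 1. The letters CCAAT, also searched on both strands, occurred 1 time in Ephb2, 1 time in Efnb1 and 0 times in Unc5b, against at least 1 in 37.4% of all promoters. The Ephb2 window had 24 CpG dinucleotides, Efnb1 14 and Unc5b 36, against a median of 7 over all promoters, so the 3 promoters shared none of these features beyond a CpG count above that median.

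In the B class, 1 receptor gene and 2 ligand genes were lower in KO. Ephb2, a receptor kinase that binds B-class ephrins, was at 1143 in WT (1097 and 1189) and had 0 reads in both KO libraries. With KO set to a floor of 3 reads over both libraries it was 797-fold lower, and the interval of the ratio ran from 0 to 0.00155. The authors' deposited table listed an adjusted p of 5.15e-51, beside 0.00297 from limma. The fold set by the floor was 383 without the deeper and 414 without the shallower KO library.

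Efnb1, which encodes ephrin-B1, a transmembrane ligand of EphB receptors, was at 1046 in WT (1317 and 776) and 127 in KO (131 and 123). The KO libraries lay close together and far below both WT libraries. The fall was 8.24-fold (ratio 0.121, interval 0.106 to 0.138), and the authors' deposited table listed an adjusted p of 9.98e-04, beside 0.0202 from limma.

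Efnb2, for ephrin-B2, the ligand that marks arteries and pairs with EphB4, had 941 normalised reads in WT (656 and 1225) and 333 in KO (161 and 505). All KO values were below all WT values, but the KO libraries differed from each other by more than the genotype means did. The ratio of 0.354 (0.323 to 0.387) met the size rule, and the authors' deposited table listed an adjusted p of 0.379, beside 0.214 from limma. Without the shallower WT library the ratio was 0.507 and without the deeper KO library 0.536, neither of which was called, and it was 0.171 without the shallower KO library.

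Efnb3, for the remaining B-class ephrin, had 39.5 (44.3 and 34.8) in WT and 40.4 (33.1 and 47.8) in KO, with overlapping libraries and a ratio of 1.02 (0.742 to 1.41). Summed over the 3 genes, B-class ephrin reads were at 2018 and 2036 in the WT libraries and 325 and 676 in the KO libraries.

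The other EphB receptor genes were not called. Ephb4, the receptor of ephrin-B2 on veins, had 311 (350 and 272) in WT and 541 (764 and 318) in KO, where only the deeper KO library stood out. Its ratio was 1.74 (1.57 to 1.92), and 1.02 without the deeper KO library, against 2.45, a call, without the shallower one. Ephb6, whose kinase domain is inactive, was at 959 (1370 and 548) in WT and 837 (1121 and 552) in KO. Ephb3, an EphB receptor of epithelial boundaries, was at 190 (255 and 126) in WT and 167 (234 and 99.5) in KO. For both, the deeper library was at least 2-fold above the shallower one in each genotype, a larger step than that between genotypes.

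Ephb3, Ephb6, Efna4 and Slit3 were the 4 compared guidance genes with such a step in both genotypes, which 2.55% of all tested genes showed. The ratios of the first 3 turned to the other side of 1 without the deeper WT library, to 1.33 for Ephb3, 1.53 for Ephb6 and 1.55 for Efna4, and without the deeper KO library they were 0.524, 0.576 and 0.443, so no direction is given for them. Ephb1 had 5 reads in WT and 0 in KO over both libraries and was not compared. Summed EphB receptor reads were at 3074 and 2138 in WT and 2118 and 970 in KO, so the shallower WT and the deeper KO library nearly met.

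**Figure D2:**
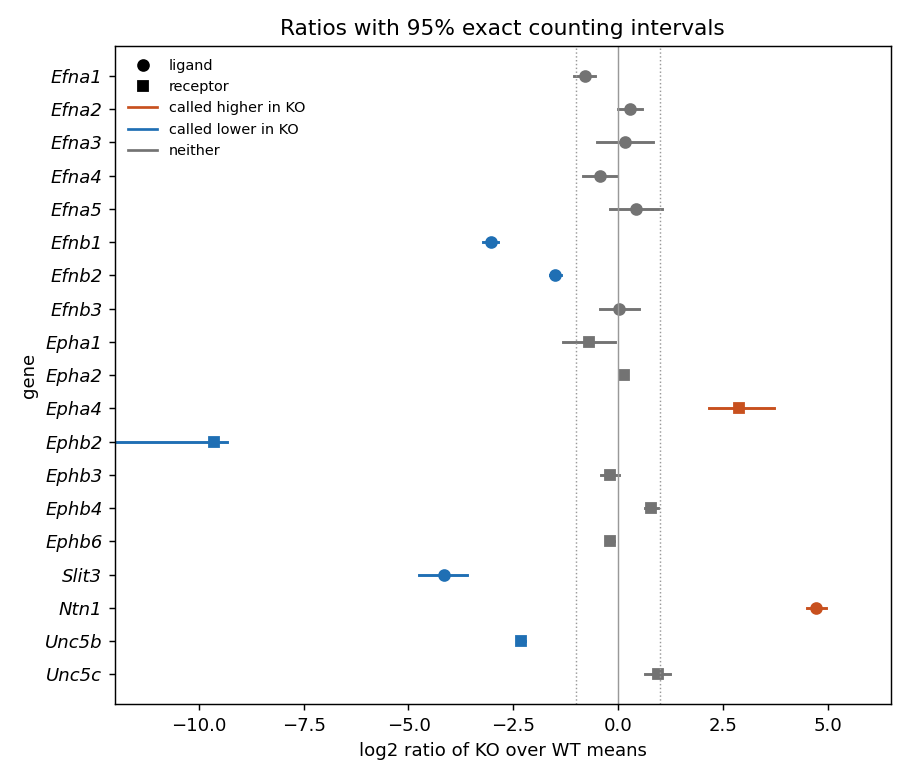
The log2 ratio of KO over WT for the 19 compared genes, circles for ligands and squares for receptors, bars for 95% exact counting intervals, dotted lines at a ratio of 2 and 0.5. Of 7 called genes, 2 lie to the right and 5 to the left, and the Ephb2 point is the ratio set by the floor, with an interval open on the left.

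The A class moved little except for 2 receptor genes at low levels. Epha2, an EphA receptor common in epithelial and mesenchymal cells, was at 2228 (2161 and 2295) in WT and 2471 (2197 and 2745) in KO. Its ratio was 1.11 (1.07 to 1.16), with overlapping genotypes by library, and the authors' deposited table listed an adjusted p of 1.

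Epha4, which binds ephrins of both classes, was at 8.90 in WT (7.71 and 10.1) and 66.2 in KO (84.6 and 47.8). Both KO libraries were well above both WT libraries. It rose 7.44-fold (4.48 to 13.1), and the authors' deposited table listed an adjusted p of 0.00762, beside 0.0295 from limma. Epha3, another EphA receptor gene, went the other way, at 35.7 (43.4 and 28.0) in WT and 1.88 (2.76 and 0.995) in KO, from 70 and 4 reads in all. Its mean of 18.8 lay just under the minimum, as that of Efna3 at 20.2 lay just over it, so it was not compared by the size rule. The authors' deposited table gave it an adjusted p of 0.00358.

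Epha1, an EphA receptor of epithelia, was at 29.7 (20.2 and 39.2) in WT and 18.4 (25.8 and 10.95) in KO, a ratio of 0.617 with overlapping libraries. It met the size rule on the low side without the deeper WT library (0.468) or the deeper KO library (0.368). Epha8 had 10 reads in WT and 17 in KO, and Epha7 had 1 read in WT.

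None of the 5 A-class ephrin genes was called. Efna1, the main ligand of EphA2, was nearest to a call at 175 (148 and 202) in WT and 101 (115 and 86.6) in KO. The genotypes did not overlap, the ratio was 0.575 (0.482 to 0.686), and the authors' deposited table listed an adjusted p of 0.494, beside 0.164 from limma. Without the deeper WT or the deeper KO library the ratio was 0.499 and 0.494 and was called.

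Efna2 was at 98.3 (122 and 75.1) and 119 (120 and 119), Efna3 at 19.0 (21.2 and 16.8) and 21.3 (26.7 and 15.9). Efna4 was at 58.4 (88.7 and 28.0) in WT and 43.3 (60.7 and 25.9) in KO, and Efna5 at 20.1 (28.9 and 11.2) and 27.0 (22.1 and 31.8). For all 4 the libraries of the genotypes overlapped, and the ratios lay between 0.742 and 1.34. The ratio of Efna4 was 0.488 without the shallower WT library and 0.443 without the deeper KO library, which would be calls, and that of Efna5 was 2.41 without the deeper WT library, where its mean fell under the minimum.

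Netrin genes held the largest rise. Ntn1, for netrin-1, the founding member of the family, was at 86.0 in WT (86.8 and 85.2) and 2279 in KO (2119 and 2438). Libraries within a genotype differed by little and the genotypes lay far apart. The rise was 26.5-fold (22.7 to 31.1), and the authors' deposited table listed an adjusted p of 4.07e-26, beside 0.00466 from limma. Ntn3, Ntn4 and Ntn5 were below the minimum, with 3, 22 and 2 reads in WT and 11, 35 and 1 in KO, and 30 of the 35 KO reads of Ntn4 were in the shallower library.

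On the receptor side of netrin, Unc5b, the Unc5 receptor of blood vessels, which can also promote cell death when no netrin is bound, was at 2845 in WT (2502 and 3187) and 570 in KO (684 and 455). All KO values were less than the lowest WT value by a wide margin. It fell to a ratio of 0.200 (interval 0.188 to 0.213), and the authors' deposited table listed an adjusted p of 4.86e-08, beside 0.0276 from limma.

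Unc5c, a netrin receptor of migrating neurons, was at 70.9 (72.3 and 69.5) in WT and 136 (179 and 93.5) in KO. Both KO libraries exceeded both WT libraries, but the ratio of 1.92 (1.57 to 2.38) was not called, and the authors' deposited table listed an adjusted p of 0.576, beside 0.227 from limma. It was 2.53, a call, without the shallower KO library, and scaling by total reads also brought it over 2. Dcc and Unc5d had no read and Unc5a had 1, in WT. Neo1, for neogenin, which was singled out after its values were seen because it shares ligands with Dcc, was at 3558 (4135 and 2981) in WT and 2898 (3575 and 2220) in KO and was not called.

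Slit ligands were represented by Slit3, a secreted Slit made by bone and mesenchymal cells. It was at 242 in WT (377 and 107) and 13.7 in KO (18.4 and 8.96). Even the lower WT library was well above both KO libraries, although the WT libraries were themselves 3.54-fold apart. The fall was 17.7-fold (ratio 0.0566, interval 0.0375 to 0.0823) by the size rule, and the authors' deposited table listed an adjusted p of 0.222, beside 0.0618 from limma. It was 7.79-fold without the deeper and 27.6-fold without the shallower WT library, and 27.0-fold without the deeper KO library.

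Slit1 had 15 reads in WT and 4 in KO, and Slit2 had 13 and 34. The 4 Robo genes, which encode the Slit receptors, were near the limit of detection: Robo1 had 5 reads in WT and 3 in KO, Robo2 had 0 and 10, Robo3 had 18 and 1, and Robo4 had 1 and 1. In each library all Robo genes together gave between 4.97 and 17.4 normalised reads and none reached the minimum mean. The counting interval of the ratio excluded 1 for Robo3, on the low side (0.00124 to 0.327), and for Robo2, on the high side (from 2.07 up). It also excluded 1 for Slit1, on the low side (0.0631 to 0.820), and for Slit2, on the high side (1.28 to 5.13). All of these genes were under the minimum mean and the interval covers counting error only, so no direction is given for them. Of the 18 WT reads of Robo3, 15 were in the deeper library, and the authors' deposited table listed adjusted p-values of 0.494 for Robo3 and 0.723 for Robo2.

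**Figure D3:**
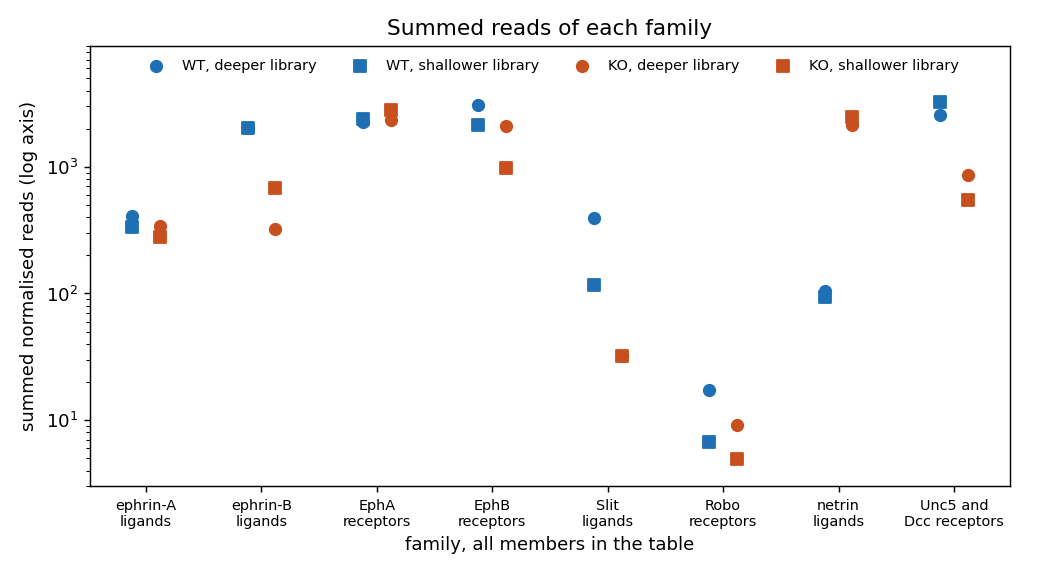
Summed normalised reads on a log axis for each family, over all its members in the table, 1 point per library, blue for WT and orange for KO, circles for the deeper and squares for the shallower library (overlapping points hide each other for ephrin-B in WT and for Slits in KO). Ephrin-B, Slit and Unc5 sums lie lower in KO, the netrin sum lies higher, and EphA and ephrin-A sums stay close.

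Slit genes also carry a microRNA that needs Dicer to mature. The hairpins of miR-218 lie in introns of Slit2 (Mir218-1, chr5:48223942-48224051, plus strand) and of Slit3 (Mir218-2, chr11:35616816-35616925, plus strand), on the strand of the host gene, in RefSeq and GENCODE M21 on GRCm38. The mature miR-218-5p is shown because its hosts are guidance genes, beside miR-17-5p and let-7a-5p, which are 2 of the 4 families with a match in a gene that rose (the others are miR-27 and miR-21) and were picked as examples after the matches were seen. Capitals mark the seed, bases 2 to 8. No small RNA was analysed here, so levels of these microRNAs are not known.
miR-218-5p: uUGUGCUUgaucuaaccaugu
miR-17-5p: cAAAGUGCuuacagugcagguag
let-7a-5p: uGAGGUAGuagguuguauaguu

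Matches of 7 bases to the seeds of 12 microRNA families were looked for in each gene's longest 3' UTR in GENCODE M21. A match is a description of letters, longer UTRs hold more of them by their length, and its effect on these levels was not tested. Both genes that rose, Ntn1 and Epha4, held matches to miR-17 (1 and 2), as did Efnb1, which fell, and Ephb4, which was not called. These are 4 of 19 compared guidance genes, against 15.3% of the 10375 tested genes with a UTR. Matches to miR-218 were in 4 compared genes, Efnb1, Efnb2, Ephb2 and Efna4, against 15.6% of tested genes. Of the guidance genes that were not compared, they were in Slit2, Robo1, Robo2 and Robo3, among the 7 Slit and Robo genes, and in Epha5, Epha7, Epha8 and Ntn4. A let-7 match was in Ntn1 and in Ephb2, 1 gene that rose and 1 that fell, against 10.7% of tested genes. A miR-27 match was in 6 compared genes, Ntn1, Ephb2, Efnb2, Efnb3, Efna2 and Efna4, against 17.9% of tested genes, and Epha4 also held a miR-21 match. Slit3, Ephb6 and Efna1 had no match to any of the 12 families.

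The sites are printed with capitals on the match. They show the pair in Epha4, whose matches are 12 bases apart, and the same letters in genes that moved in opposite directions.
Epha4, miR-17 sites at bases 49 to 74 of 3310: GCACTTTaattgaagaactGCACTTT
Ntn1, miR-17 site at bases 1595 to 1601 of 3642: cttggtgccagGCACTTTacccatatgct
Efnb1, miR-17 site at bases 1131 to 1137 of 1464: cagcctgcagtGCACTTTgaccccagctc
Ntn1, let-7 site at bases 242 to 248 of 3642: acaagacatagCTACCTCacggcgctcct
Ephb2, let-7 site at bases 5047 to 5053 of 7783: tcctcctcgctCTACCTCccaagggctgg

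Ligands and receptors were set side by side. Of 10 compared ligand genes 1 was higher, 3 were lower and 6 were neither, and of 9 receptor genes 1 was higher, 2 were lower and 6 were neither, beside 8.92% higher and 8.56% lower over all tested genes. The median log2 ratio was -0.20 for ligands and -0.19 for receptors, beside -0.01 for all tested genes. The receptor median changed sign with the library left out, from -0.80 without the deeper KO library to 0.41 without the deeper WT library. That of ligands stayed between -0.39 and -0.10 with 1 library left out, but was 0.03 with no filter on the mean. The genotypes did not overlap by library for 3 genes that were above WT in KO (Epha4, Ntn1 and Unc5c) and for 6 that were below it (Efna1, Efnb1, Efnb2, Ephb2, Slit3 and Unc5b), beside 30.4% and 28.8% of all tested genes. Among the 5 genes called by all 3 rules, Epha4, which binds ephrins of both classes, rose. Efnb1 and Ephb2 both fell, while Ntn1 rose and Unc5b fell. Of the other compared genes of the ephrin-B, EphB, netrin and Unc5 families, Efnb2 was lower by the size rule. Efnb3, Ephb3, Ephb4, Ephb6 and Unc5c were not called.

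Levels between genes were compared as normalised reads per kb of annotated exon (GENCODE M21), a length that need not be the one the authors counted over. In WT the highest levels were those of Epha2 at 569 (552 and 587), Unc5b at 485 (426 and 543), Efnb1 at 321 (404 and 238), Ephb6 at 254 (363 and 145), Efnb2 at 196 (137 and 256) and Ephb2 at 105 (101 and 109). Neighbours in the order from Unc5b to Efnb2 overlapped by library, except Unc5b against Efnb1. In KO, Epha2 was first at 632 (562 and 702), and Ntn1 had moved to the next place at 363 (338 and 388) from 13.7 per kb in WT. Ephb6 followed at 222 (297 and 146), Ephb4 at 124 (175 and 72.9) and Unc5b at 97.0 (117 and 77.5), 3 genes that overlapped in a chain.

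**Figure D4:**
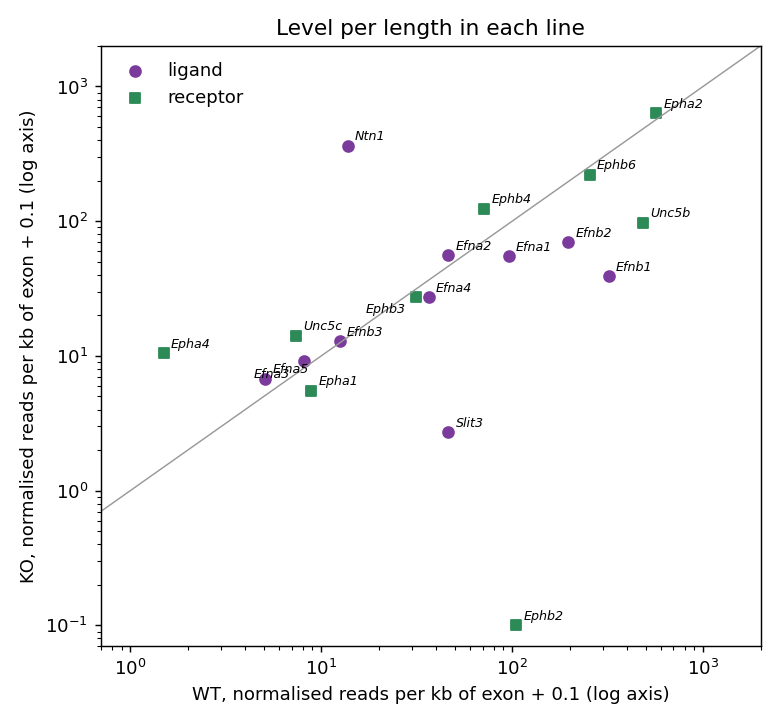
Level per length in WT (x axis) and KO (y axis), normalised reads per kb of exon plus 0.1, both on log axes, for the 19 compared genes, circles for ligands and squares for receptors, with the line of equal levels. Ntn1 and Epha4 lie above the line, Ephb2, Slit3, Efnb1, Unc5b and Efnb2 lie below it, and Epha2 sits at the top of both axes.

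Genes that carry these signals inside the cell, or modify the ligands, were taken from a list of 75 with textbook roles in the 4 pathways. Calls were made for 7 higher and 7 lower genes among 61 compared, which leaves 47, where 8.92% of all tested genes were called higher and 8.56% lower. Adora2b, Arhgef15, Ntng2 and Draxin (2610109H07Rik) passed the minimum through 1 genotype only and were bound to differ. The counts therefore describe these 61 genes and not the pathways as a whole. The median log2 ratio was 0.15 beside -0.01 for all tested genes. The authors' deposited table called 5 higher and 5 lower, and limma called 3 higher and 4 lower, where the shares over all genes were 3.91% and 3.96% for the table and 3.55% and 3.65% for limma. By pathway, 1 of 25 Eph forward signalling genes was higher and 1 lower, 1 of 6 ephrin reverse signalling genes was higher and 2 lower, 1 of 15 Slit and Robo genes was higher and 1 lower, and 4 of 15 netrin genes were higher and 3 lower. The ephrin reverse signalling list held Arhgef15, its 1 higher gene, and Grb10, 1 of its 2 lower genes, both of which are also known to act with Eph or other receptor kinases, so its counts do not stand for reverse signalling alone.

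The 10 effector genes called by both the size rule and the authors' table, 5 lower and 5 higher, follow. Of these, Ntng2, Ablim1 and Acp1 were not called by limma (adjusted p of 0.074, 0.118 and 0.0956). The size rule but not the authors' table also called Rgma and Srgap1 higher and Rgs3 and Draxin (2610109H07Rik) lower. Draxin was at 127 in the deeper and 8.97 in the shallower WT library, so its size rests mostly on 1 library. Sdc3, for a heparan sulfate proteoglycan of the class that supports Slit and Robo binding, fell 23.8-fold from 11760 and 7086 in the WT libraries to 399 and 393 in the KO libraries (the authors' deposited table: adjusted p = 1.14e-06). Mcam (CD146), an adhesion receptor reported to bind netrin-1, fell 29.4-fold from 1541 and 3479 to 63.5 and 108 (the authors' deposited table: adjusted p = 0.00556), and 18.0-fold without the shallower WT library. Ntng2, for the membrane-bound netrin-G2, fell 21.3-fold from 62.7 and 54.9 to 5.52 and 0 (the authors' deposited table: adjusted p = 6.21e-05), and 10.7-fold without the shallower KO library. In all 3 genes every KO library lay below both WT libraries.

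Grb10, an adaptor for activated receptor kinases, fell 5.27-fold from 3884 and 3913 to 895 and 583 (the authors' deposited table: adjusted p = 9.36e-09). Pak1, a kinase downstream of Rac and Cdc42, fell 2.46-fold from 553 and 577 to 240 and 220 (the authors' deposited table: adjusted p = 0.0184). Rgs3, on the ephrin reverse signalling list, was also lower by the size rule, from 1526 and 697 to 530 and 472 (the authors' deposited table: adjusted p = 0.579). Its ratio was 0.718, which was not called, without the deeper WT library.

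On the high side, Arhgef15, a signalling protein of the ephexin family that acts downstream of Eph receptors, rose 7.64-fold from 11.6 and 8.97 to 76.3 and 80.6 (the authors' deposited table: adjusted p = 0.00105). Plekhh1, the relative of a worm netrin receptor adaptor, rose 7.25-fold from 48.2 and 60.5 to 494 and 294 (the authors' deposited table: adjusted p = 0.00146). Adora2b, an adenosine receptor reported to take part in netrin-1 signalling, rose 5.15-fold from 4.82 and 10.1 to 34.9 and 41.8 (the authors' deposited table: adjusted p = 0.0905). Its rise was 3.80-fold without the deeper and 7.96-fold without the shallower WT library. Ablim1 and Acp1, an actin binding protein and a phosphatase of Eph receptors, were also called. Ablim1 rose 2.38-fold from 586 and 374 to 915 and 1370 (the authors' deposited table: adjusted p = 0.0997). Acp1 rose 2.28-fold from 876 and 1006 to 1694 and 2596 (the authors' deposited table: adjusted p = 0.0871). Without the shallower KO library their ratios were 1.91 and 1.80 and were not called, and that of Ablim1 was 1.95 without the shallower WT library.

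Since guidance genes are also typical of neurons, 10 neuronal markers were summed. They gave 443 and 390 normalised reads in the WT libraries and 52.4 and 44.8 in the KO libraries, of which Mtap2 (Map2), a microtubule protein, made up 411 and 314 in WT and 9.20 and 0.995 in KO. Rbfox3, Stmn2 and Nefl had 0 reads in all libraries. Tubb3, the other marker above the minimum, went the other way, with a log2 ratio of 0.68. Both its KO libraries lay above both WT libraries, but it was not called. The fall of the sum therefore rests mostly on Mtap2. Gap43, a growth cone protein under the minimum mean, had 15.4 and 32.5 in WT and 0.920 and 2.99 in KO, and the authors' deposited table listed an adjusted p of 0.0647. The part of this difference in the changes of guidance genes was not tested.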

How the data were processed

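PolyA-selected RNA of 1 WT and 1 KO sample (per the labels) was available as 1 table of the authors' own comparison. TopHat 1.4.0, DESeq 1.10.1 and mm9 are listed, without role or order, in the submitters' processing notes. The sources used here give neither counter nor annotation. The authors, per the file headers, deposited as signal the mean read count per gene after division by size factors, the ratio (fold) of KO over WT, its log2 value, and p-values with adjusted p-values, which were not recomputed. Every mean was a sum of whole multiples of 2 steps per genotype, and exactly 1 pair of whole read numbers gave it (within a relative tolerance of 2e-13) for 100% of genes above 0, so 2 libraries per genotype were recovered. A genotype with 0 reads was set to 3 reads over its libraries. limma 3.58.1 (R 4.3.3) was fitted to log2(normalised reads + 1) of 4 libraries over 11710 genes, with Benjamini-Hochberg adjustment, and so understates changes of low genes. The size rule and limma were tested on simulated data. Every guidance gene with a mean of at least 20 is described, and of the effectors the 10 with the largest change called by both rules. How reads of overlapping or antisense genes were assigned is not known, so their values are uncertain. Members, lists and microRNA families were chosen with earlier results of these data known. Promoters and microRNAs are from RefSeq (GRCm38.p6). Between WT libraries 8.73% of tested genes were at least 2-fold apart, and 8.27% between KO libraries. Alternative scalings, filters, folds and left-out libraries were tried.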

Additional observations from a re-analysis of the deposited data

How the results depend on the processing

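The planned count tests and TMM scaling were not run. Instead limma and upper quartile scaling, chosen after seeing the data, were applied to the recovered libraries. Of the guidance genes, 2 were called higher and 5 lower. The number higher was 4 with no filter, 1 at a mean of at least 100 and 4 at a ratio of 1.5, and 2 to 4 with 1 library left out. The number lower was 8 with no filter and 3 with limma, and 5 to 7 with 1 library left out. Of the effector genes, 7 were called higher and 7 lower. The number higher was 4 at a mean of at least 100, 15 at a ratio of 1.5, 3 at a ratio of 4 and 3 with limma, and the number lower was 12 at a ratio of 1.5 and 4 with limma. The median log2 ratio of ligands was -1.15 at a mean of at least 100, where fewer genes enter, and 0.03 with no filter, against -0.20. That of effectors was 0.071 to 0.31 with 1 library left out, against 0.15. No ratio of a called gene changed sign under any scaling or left-out library. Scaling by total reads or the upper quartile moved the median of all tested genes to 0.06 and -0.07. The authors' calls of guidance genes numbered 2 higher and 4 lower at adjusted p thresholds of 0.05 and 0.01 too. No paired analysis was possible because the labels give 1 sample per genotype and the recovered libraries carry no replicate numbers. Genes with a mean under 20 normalised reads were left out by choice of the filter, although Epha3, at 18.8, was called lower in the authors' deposited table.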
